A study of Mus musculus with 7 samples.

Results

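The interferon regulatory factors (IRFs) are a family of transcription factors, described here through the messenger RNA of Irf1, Irf2, Irf3, Irf4, Irf5, Irf7, Irf8 and Irf9 in regulatory T cells (Treg cells) taken from mouse tumours. The 8 members were picked out by gene symbol from the 57180 genes of the deposited count table, and all 8 were found in it. Treg cells are CD4 T cells that hold other immune cells in check under the control of the transcription factor FOXP3. They were isolated from B16-F0 tumours, a melanoma line transplanted into mice, as a FOXP3-high population (3 libraries) and a FOXP3-low population (4 libraries). Both populations came from Foxp3-Cre-YFP mice, in which the Foxp3 gene drives Cre recombinase and a yellow fluorescent reporter, and both have the genotype label WT. The sources used here give neither the sorting gates, the age nor the sex of the mice, nor whether each library is from a different mouse. The p-values below therefore measure only the spread between these libraries, which may be technical.

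IRF proteins share a DNA-binding domain that reads the interferon-stimulated response element (ISRE), a GAAA repeat in the control regions of interferon genes and of the genes that interferons induce. IRF3, IRF5 and IRF7 are activated by phosphorylation when a cell senses nucleic acids or other microbial products, IRF9 is the DNA-binding part of the complex ISGF3 that answers type I interferon, and IRF1 and IRF2 act largely as activator and antagonist on shared sites. IRF4 and IRF8 bind DNA weakly alone and work with partners, PU.1 in myeloid and B cells and BATF with JUN proteins in T cells. In mice, IRF4 is needed for effector Treg differentiation, and IRF8 directs the development of dendritic cells and monocytes.

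The FOXP3-high libraries held 9048771 to 11202260 counts and the FOXP3-low libraries 12177761 to 14546999. Values are CPM, counts brought to a common library size by TMM, a scaling that takes most genes as unchanged. Foxp3 had 647, 808 and 639 CPM in FOXP3-high, against 330, 397, 310 and 393 CPM in FOXP3-low (log2 fold change 0.97 ± 0.109 SE, adjusted p = 7.47e-05, edgeR). The libraries also differed in markers of other cells. Of 17 macrophage and monocyte markers tested 16 were lower in FOXP3-high, and the exception was Ccr2. All 11 dendritic cell markers were lower, as were 7 of 8 neutrophil, 4 of 6 plasmacytoid dendritic cell, 5 of 7 B and plasma cell and 4 of 8 CD8 T and NK cell markers, while 10 of 10 melanoma and melanocyte markers were higher. Of 15 CD4 T cell identity genes 14 were higher (median log2 fold change 0.46), as were 8 of 10 Treg genes, and 12 of 12 cell cycle genes were lower. Foxp3 itself, by which the populations are named, is among these Treg genes. Over all genes tested, 21.8% were called higher and 24.6% lower (adjusted p under 0.05, edgeR). The summed endothelial and fibroblast markers overlapped, at 93.2 to 618 CPM in FOXP3-high and 148 to 725 CPM in FOXP3-low, with replicate 3 the highest in each group. Changes are therefore also given after scaling each library to those 15 T cell genes, which moved the median log2 fold change over all tested genes to -0.48, against 0.01 under TMM.

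Stretches of the promoters of Irf1, Irf2 and Irf8 are shown because these were the members whose window held a GAS element (the interferon-gamma-activated site TTCNNNGAA) or an ISRE (GAAANNGAAA). RefSeq windows from 250 bases before to 50 bases after each start (GRCm38.p6, both strands searched) were available for all 8 members, 11 windows in all. Each stretch below is 60 bases on the plus strand, which is the coding strand of all 3 genes, with the matches in capitals.
Irf1 chr11:53769914-53769973: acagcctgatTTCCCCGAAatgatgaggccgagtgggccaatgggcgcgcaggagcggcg
Irf2 chr8:46739495-46739554: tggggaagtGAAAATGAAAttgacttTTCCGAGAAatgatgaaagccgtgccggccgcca
Irf8 chr8:120736177-120736236: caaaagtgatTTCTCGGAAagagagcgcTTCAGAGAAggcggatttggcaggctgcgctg
The GAS match of Irf1 began 90 bases before the start, and the matches of Irf8 began 171 and 153 bases before it. In Irf2 the ISRE began at 241 and the GAS at 224 bases before the start. A GAS match was found in 3 of the 11 member windows and in 8.3% of the 32851 windows of all genes, and an ISRE match in 1 of 11 and in 3.44% of all. The NF-kB motif was found in 2 member windows, those of Irf1 and Irf2, and in 4.51% of all windows, and the AP-1 motif TGANTCA in 0 member windows and in 7.81% of all. A match is a description of the letters and not evidence of binding.

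The family did not move as a unit. Irf3 and Irf9 were higher in FOXP3-high by less than 1.5-fold, Irf5, Irf7 and Irf8 were lower, and Irf1, Irf2 and Irf4 did not pass the test. All 8 members passed the filter on low counts. By edgeR's quasi-likelihood test with an adjusted p under 0.05 over 15838 genes, 2 of 8 members were higher and 3 lower, against 21.8% and 24.6% of all genes tested (46.5% in either direction). The median log2 fold change of the 8 was 0.01, the same as over all genes. The libraries of the groups did not overlap for 5 members, and for 50.7% of all genes. Under T cell gene scaling 0 members were called higher and 6 lower by edgeR, with all 8 log2 fold changes below 0, and all genes gave 768 higher and 8192 lower, against 3459 and 3898 under TMM.

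**Figure D1:**
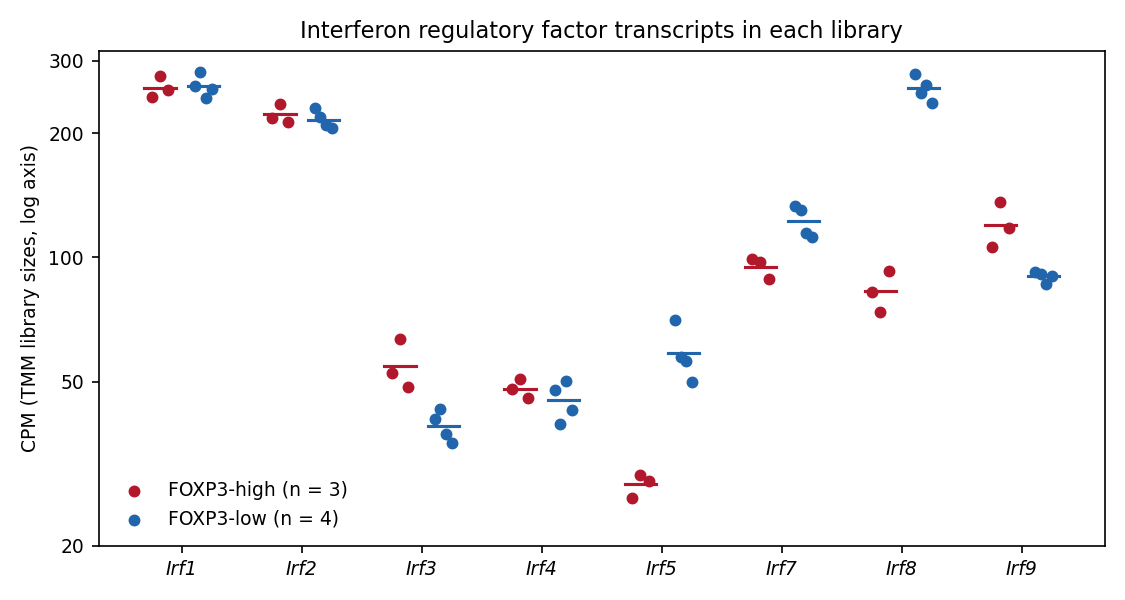
TMM-scaled CPM of each IRF gene (vertical log axis) in the 3 FOXP3-high libraries (red, left) and the 4 FOXP3-low libraries (blue, right), 1 point per library with a line at the group mean. Irf5, Irf7 and Irf8 lie wholly below in FOXP3-high, Irf3 and Irf9 wholly above, and Irf1, Irf2 and Irf4 overlap.

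Irf8, the factor of dendritic cell and monocyte development (ENSMUSG00000041515, chromosome 8, 121463097 to 121483433, plus strand, GRCm39), changed the most of the 8. It had 82.2, 73.8 and 92.6 CPM in FOXP3-high, against 278, 250.05, 262 and 236 CPM in FOXP3-low. Every FOXP3-low library was far above every FOXP3-high library, and the spread within each group was small beside the gap. The log2 fold change was -1.63 ± 0.0861 (SE, adjusted p = 8.18e-07, edgeR), which is 3.10-fold lower in FOXP3-high. It was -2.12 under T cell gene scaling and between -1.72 and -1.53 when each library was left out in turn. The summed dendritic cell markers were 267, 193 and 316 CPM in FOXP3-high, against 3627, 2628, 3031 and 2351 CPM in FOXP3-low. Within each group the libraries ranked alike by Irf8 and by this sum, with replicate 3 first in FOXP3-high and replicate 1 first in FOXP3-low. Most of this sum came from H2-Ab1, a class II chain, with 94.7 ± 32.3 CPM in FOXP3-high and 1462 ± 289 CPM in FOXP3-low, and Cd74, the class II invariant chain. Taken singly, H2-Ab1, H2-Aa, H2-Eb1, Cd74 and Cd209a ranked the libraries like Irf8 in both groups. Itgax, Flt3, Zbtb46, Xcr1, Clec9a and Ccl22 did not rank them like Irf8 in both groups. No dendritic cell marker on the list was at 0 in all FOXP3-high libraries, and the part of these cells in the Irf8 result was not tested. In bulk samples, fewer cells of a type and less RNA per cell cannot be told apart.

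Irf5, which drives inflammatory cytokine genes downstream of Toll-like receptors (ENSMUSG00000029771, chromosome 6, 29526624 to 29541870, plus strand), was the other member with a log2 fold change below -1. It had 26.1, 29.7 and 28.7 CPM in FOXP3-high, against 70.5, 57.3, 56.2 and 49.9 CPM in FOXP3-low. The groups were well apart, and FOXP3-low replicate 1 stood highest. The log2 fold change was -1.06 ± 0.118 (SE, adjusted p = 7.09e-05, edgeR), which is 2.08-fold lower in FOXP3-high, and -1.55 under T cell gene scaling. The summed macrophage and monocyte markers were 982, 985 and 1001 CPM in FOXP3-high, against 3877, 3593, 3591 and 3131 CPM in FOXP3-low, and the 4 FOXP3-low libraries ranked alike by Irf5 and by this sum. In FOXP3-high they did not, since Irf5 was highest in replicate 2 and the sum in replicate 3. Ccr2, the 1 marker of that list that was higher, made up 450.1 ± 45.7 CPM of it in FOXP3-high and 227 ± 10.6 CPM in FOXP3-low. The ranking of the sum in FOXP3-low rests on Ccr2, since replicates 2 and 3 were nearly level at 3593 and 3591 CPM. Ccr2 had 240 CPM in replicate 2 and 217 CPM in replicate 3, and without it replicate 3 would lie above replicate 2, unlike Irf5. Ctss, a lysosomal protease with the highest level on that list averaged over all 7 libraries, had 245 ± 5.59 CPM in FOXP3-high and 834 ± 85.4 CPM in FOXP3-low. The summed neutrophil markers were 103 to 235 CPM in FOXP3-high and 2645 to 3108 CPM in FOXP3-low, and 1 of these 9 markers, Ly6g, had no count in any FOXP3-high library. The part of these cells in the Irf5 result was not tested. Irf5 overlaps Tnpo3 on the opposite strand over 1045 bases. Tnpo3 held 144% as many counts, at a log2 fold change of -0.01. Whether counting used the strand is not stated in the sources used here.

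Irf7, the amplifier of type I interferon production (ENSMUSG00000025498, chromosome 7, 140842619 to 140846336, minus strand), was lower by a smaller margin. It had 99.1, 97.2 and 88.6 CPM in FOXP3-high, against 133, 130.1, 115 and 112 CPM in FOXP3-low. The groups did not overlap, but the gap between the nearest libraries was about as wide as the spread within FOXP3-high. The log2 fold change was -0.37 ± 0.0772 (SE, adjusted p = 0.00353, edgeR), 1.29-fold lower, and -0.86 under T cell gene scaling. The summed markers of plasmacytoid dendritic cells, known as strong interferon producers that hold much Irf7, were 45.1, 42.2 and 54.8 CPM in FOXP3-high, against 76.3, 64.3, 83.1 and 66.1 CPM in FOXP3-low. Most of that sum was Pacsin1 (30.2 CPM in FOXP3-high, 32.7 CPM in FOXP3-low) and Tcf4 (13.4 and 18.7 CPM), and neither was called. The 4 markers called lower had low levels and fell by more than the sum, such as Siglech, with 0.770 ± 0.391 CPM in FOXP3-high and 5.43 ± 1.42 CPM in FOXP3-low. Of these 8 markers 1, Cox6a2, had no count in any FOXP3-high library, and the part of these cells in the Irf7 result was not tested. Phrf1, on the opposite strand with 45 shared bases, held 263% as many counts as Irf7 and had a log2 fold change of 0.25.

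Irf3 and Irf9 were higher in FOXP3-high under TMM. The summed melanoma and melanocyte markers were also higher, at 4688, 3410 and 4185 CPM in FOXP3-high, against 1870, 1406, 2127 and 2516 CPM in FOXP3-low. Within FOXP3-high this sum was lowest in replicate 2, where Irf3 and Irf9 were highest. The part of tumour cells in the Irf3 and Irf9 results was not tested. Irf3, the constitutive sensor-activated factor that starts interferon beta transcription (ENSMUSG00000003184, chromosome 7, 44647072 to 44651821, plus strand), had 52.4, 63.2 and 48.4 CPM in FOXP3-high, against 40.5, 42.8, 37.4 and 35.5 CPM in FOXP3-low. All FOXP3-high libraries lay above FOXP3-low, with FOXP3-high replicate 2 the highest. The log2 fold change was 0.49 ± 0.105 (SE, adjusted p = 0.00402, edgeR), 1.40-fold, and 0.40 to 0.57 when each library was left out in turn. Scaled to T cell genes, Irf3 had 43.1, 48.9 and 42.4 CPM in FOXP3-high and 45.7, 48.0, 47.0 and 39.9 CPM in FOXP3-low. The groups then overlapped, with a log2 fold change of -0.01 (adjusted p = 0.931, edgeR).

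Irf9, the DNA-binding subunit of ISGF3 (ENSMUSG00000002325, chromosome 14, 55841028 to 55847487, plus strand), had 106, 136 and 118 CPM in FOXP3-high, against 92.0, 91.2, 86.4 and 90.3 CPM in FOXP3-low. The FOXP3-low libraries were close together, and the FOXP3-high libraries lay above them with a wider spread. The log2 fold change was 0.41 ± 0.0808 (SE, adjusted p = 0.0023, edgeR), 1.33-fold. Scaled to T cell genes, Irf9 had 87.2, 105 and 103 CPM in FOXP3-high and 104, 102, 109 and 102 CPM in FOXP3-low, which overlapped (log2 fold change -0.08, adjusted p = 0.407, edgeR). Rnf31, which shares 103 bases with Irf9 on the same strand, held 36.2% as many counts and had a log2 fold change of 0.32.

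Irf1, Irf2 and Irf4 had nearly level CPM values. Irf4, the factor of effector Treg differentiation (ENSMUSG00000021356, chromosome 13, 30933209 to 30950959, plus strand), had 48.0, 50.7 and 45.6 CPM in FOXP3-high, against 47.6, 39.5, 50.3 and 42.6 CPM in FOXP3-low. The groups overlapped almost wholly, with a log2 fold change of 0.09 ± 0.0930 (SE, adjusted p = 0.444, edgeR) and a 95% interval of -0.11 to 0.30. Scaled to T cell genes, Irf4 had 39.5, 39.2 and 39.9 CPM in FOXP3-high and 53.8, 44.4, 63.2 and 47.9 CPM in FOXP3-low, and was called lower (log2 fold change -0.40, adjusted p = 0.0156, edgeR).

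Irf1, an interferon-gamma-induced activator (ENSMUSG00000018899, chromosome 11, 53660841 to 53669200, plus strand), had 244, 276 and 254 CPM in FOXP3-high, against 261, 281, 243 and 256 CPM in FOXP3-low. The log2 fold change was -0.01 ± 0.0620 (SE, adjusted p = 0.881, edgeR), with a 95% interval of -0.15 to 0.13. Irf2, its antagonist at many sites (ENSMUSG00000031627, chromosome 8, 47192767 to 47300493, plus strand), had 217, 236 and 213 CPM in FOXP3-high, against 229.6, 219, 209 and 206 CPM in FOXP3-low. Its log2 fold change was 0.04 ± 0.0564 (SE, adjusted p = 0.590, edgeR), with a 95% interval of -0.09 to 0.17. The libraries of both groups were interleaved for both genes. Under T cell gene scaling Irf1 and Irf2 were called lower, at log2 fold changes of -0.50 (adjusted p = 5.71e-05, edgeR) and -0.45 (adjusted p = 1.40e-04, edgeR). Gm17334, a predicted gene opposite Irf1 over 3136 bases, held 20.1% as many counts as Irf1 at a log2 fold change of -0.02.

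**Figure D2:**
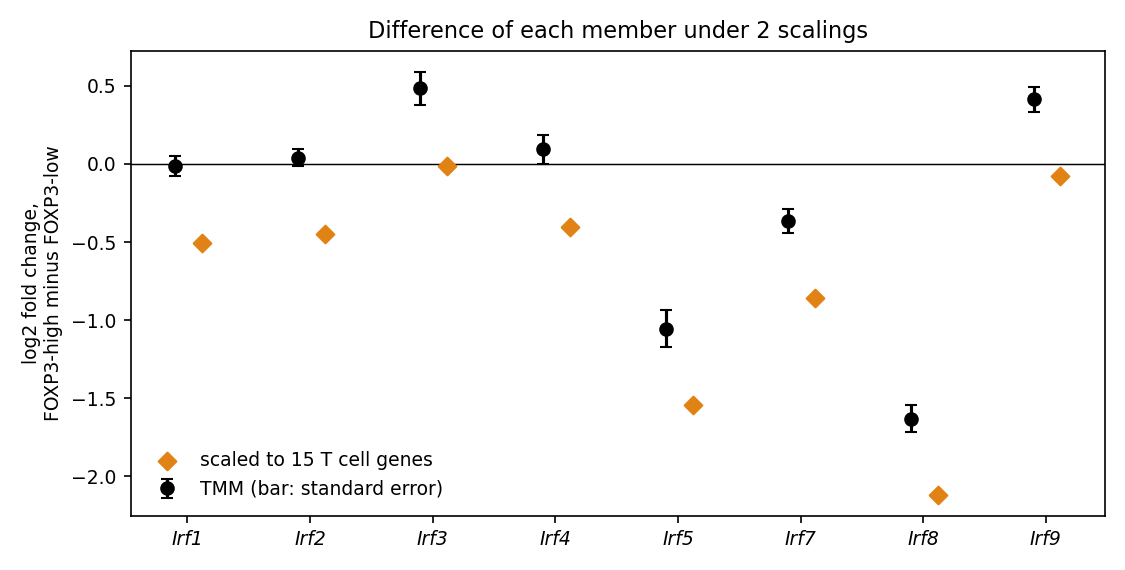
Log2 fold change of FOXP3-high over FOXP3-low for each IRF gene under TMM (black circles, with bars for the standard error) and under scaling to 15 T cell genes (orange diamonds). Irf8 and Irf5 are lower under both scalings, while Irf3 and Irf9 pass from 0.49 and 0.41 under TMM to -0.01 and -0.08 under T cell gene scaling.

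Ranked by TPM (counts divided by the deposited gene length and brought to a common total), Irf1 was the most abundant member in both groups, and the members below it stood in a different order. In FOXP3-high the levels ran Irf1 220.7 ± 9.35, Irf2 102 ± 2.94, Irf7 85.6 ± 4.35, Irf9 75.6 ± 8.09, Irf3 53.9 ± 6.17, Irf8 40.0 ± 5.46, Irf4 33.3 ± 0.981 and Irf5 33.0 ± 1.91 TPM (SD, n = 3). In FOXP3-low they ran Irf1 200.3 ± 11.6, Irf8 111 ± 8.14, Irf7 99.2 ± 8.58, Irf2 89.3 ± 4.47, Irf5 61.6 ± 9.21, Irf9 51.1 ± 1.23, Irf3 34.7 ± 2.90 and Irf4 28.1 ± 3.15 TPM (SD, n = 4). Irf8 ranked second in FOXP3-low and sixth in FOXP3-high. The ranges of Irf7 and Irf9 overlapped in FOXP3-high, as did those of Irf4 and Irf5. In FOXP3-low those of Irf8 and Irf7, Irf7 and Irf2, Irf5 and Irf9, and Irf3 and Irf4 overlapped. Within single libraries the order held all the same, in 4 of 4 FOXP3-low libraries for each of these pairs and in 3 of 3 FOXP3-high libraries for Irf7 over Irf9, while Irf4 exceeded Irf5 in 2 of 3.

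As a share of the summed family level, Irf8 took 6.23% ± 0.972 in FOXP3-high and 16.5% ± 0.806 in FOXP3-low, and Irf5 took 5.11% ± 0.220 in FOXP3-high and 9.09% ± 0.918 in FOXP3-low. Irf1 took 34.3% ± 0.505 in FOXP3-high and 29.7% ± 1.59 in FOXP3-low (SD, n = 3 and 4 throughout). The summed level overlapped between the groups in TPM, at 626, 667 and 640.3 TPM in FOXP3-high and 716, 694, 658 and 634 TPM in FOXP3-low. In CPM, which is not divided by length, it did not overlap, at 875, 962 and 889 CPM in FOXP3-high and 1152, 1111, 1060 and 1029 CPM in FOXP3-low. The share of one member depends on the levels of the other members.

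**Figure D3:**
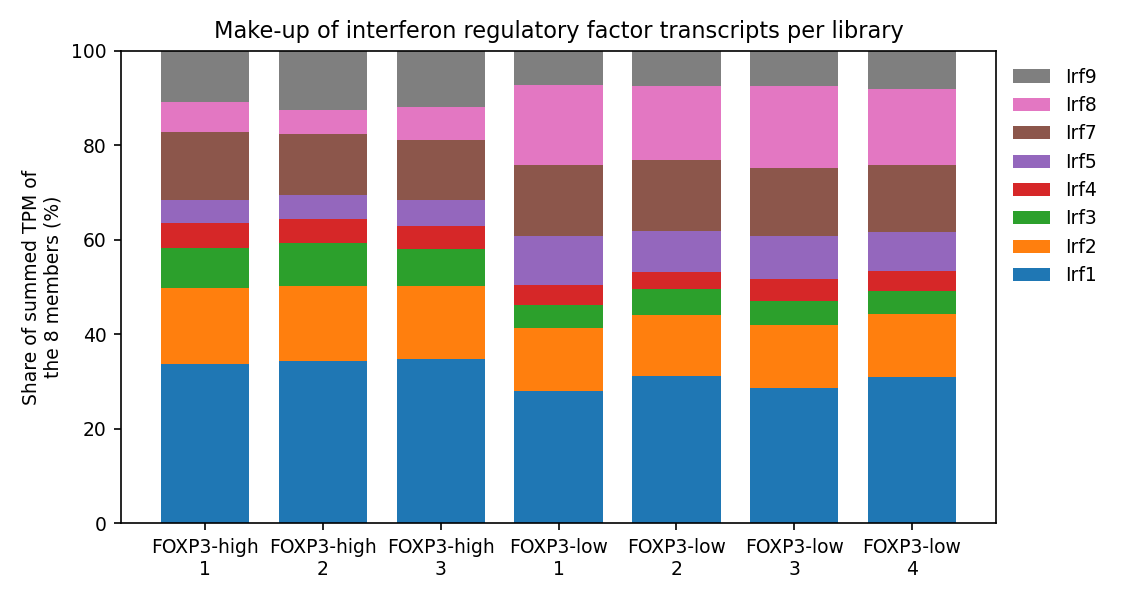
Share of the summed family TPM held by each IRF gene (percent) as 1 stacked bar per library, FOXP3-high libraries on the left. Irf8 takes 6.23% on average in FOXP3-high and 16.5% in FOXP3-low, and Irf1 takes the most in every library.

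Ratios of the counts of 2 members within a library do not depend on how libraries are scaled. Of the 28 pairs of members, 22 had ratios that did not overlap between the groups, against 47.3% of all pairs of the 15448 genes with a count in every library. Pairs share members and are not independent, and no test was made on them. The ratio of Irf4 to Irf8, the pair that shares partner proteins, was 0.584, 0.686 and 0.492 in FOXP3-high, against 0.171, 0.158, 0.192 and 0.180 in FOXP3-low. The ratio of Irf3 to Irf7, the pair phosphorylated downstream of nucleic acid sensing, was 0.528, 0.651 and 0.546 in FOXP3-high and 0.304, 0.329, 0.325 and 0.317 in FOXP3-low. Counts of Irf8 and Irf7 exceeded those of Irf4 and Irf3 in all 7 libraries, and by less in every FOXP3-high library than in any FOXP3-low library. Gene length enters these counts, at 7055 bases for Irf8 and 4903 bases for Irf4. In TPM, Irf8 also lay above Irf4 in every library, but only at 34.6 against 34.2 TPM in FOXP3-high replicate 2.

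The ratio of Irf7 to Irf9, itself a subunit of the complex that induces Irf7, was 0.937, 0.714 and 0.752 in FOXP3-high, against 1.45, 1.43, 1.33 and 1.24 in FOXP3-low. Irf7 counts exceeded Irf9 counts in every FOXP3-low library and in no FOXP3-high library. Counts are not divided by gene length, which is 3776 bases for Irf7 and 5386 bases for Irf9. In TPM, Irf7 lay above Irf9 in every library of both groups, so only the shift of the ratio between groups is free of length. The ratio of Irf1 to its antagonist Irf2 overlapped, at 1.12, 1.17 and 1.19 in FOXP3-high and 1.13, 1.29, 1.16 and 1.24 in FOXP3-low. That of Irf3 to Irf9 overlapped too, at 0.495, 0.464 and 0.411 in FOXP3-high and 0.440, 0.469, 0.432 and 0.393 in FOXP3-low. The other 4 overlapping pairs joined Irf4 with Irf1, Irf2, Irf3 or Irf9.

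**Figure D4:**
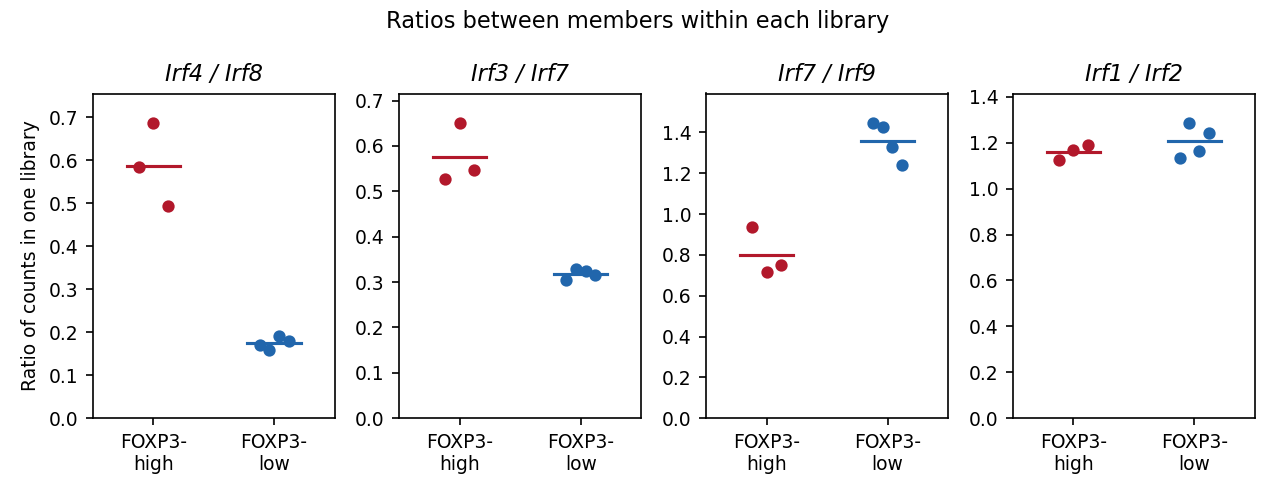
Ratio of the counts of a pair of IRF genes within each library (vertical axis, from 0), with FOXP3-high libraries on the left of each panel and FOXP3-low libraries on the right and lines at the group means. The groups are apart for Irf4 to Irf8, Irf3 to Irf7 and Irf7 to Irf9, and overlap for Irf1 to Irf2.

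The counts of calls in the lists that follow are to be read against 21.8% higher and 24.6% lower over all genes tested, and 4.85% and 51.7% under T cell gene scaling. For every gene in these lists, Socs3, Oasl1 and Cd274 included, the part of cells other than Treg cells was not tested. Of 12 interferon receptors and JAK-STAT partners of IRF9, 6 were higher (50%), 3 lower (25%) and 3 not called in FOXP3-high, with a median log2 fold change of 0.13. Ifngr1, a chain of the interferon-gamma receptor, rose to 1080 ± 94.7 CPM in FOXP3-high, against 457 ± 25.0 CPM in FOXP3-low (log2 fold change 1.24 ± 0.0653 SE, adjusted p = 8.07e-07, edgeR), and it was the 1 gene of the list called higher under T cell gene scaling, where 8 were lower. Ifngr2, the other chain, fell to 14.9 ± 2.13 CPM in FOXP3-high, against 24.3 ± 3.78 CPM in FOXP3-low (log2 fold change -0.71, adjusted p = 0.00313, edgeR). Socs3, a feedback inhibitor of JAK kinases, fell to 167 ± 6.10 CPM in FOXP3-high, against 258 ± 19.9 CPM in FOXP3-low (log2 fold change -0.63, adjusted p = 5.11e-05, edgeR). Jak2 had 298 ± 23.0 CPM in FOXP3-high and 300 ± 20.5 CPM in FOXP3-low and was not called, but was called lower under T cell gene scaling (-0.50).

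Of 22 sensors, adaptors and kinases upstream of IRF3, IRF5 and IRF7, 3 were higher (13.6%), 10 lower (45.5%) and 9 not called (median log2 fold change -0.34), and under T cell gene scaling 0 were higher and 17 lower. Unc93b1, which carries nucleic-acid-sensing Toll-like receptors to the endosome, fell to 26.7 ± 4.44 CPM in FOXP3-high, against 104 ± 5.41 CPM in FOXP3-low (log2 fold change -1.96 ± 0.110 SE, adjusted p = 1.12e-06, edgeR). Many genes of this list are also active in myeloid cells, whose markers moved the same way, and the part of those cells was not tested. The IRF3 kinase Tbk1 had 102 ± 10.2 CPM in FOXP3-high and 106 ± 3.48 CPM in FOXP3-low and was not called (log2 fold change -0.06, adjusted p = 0.535, edgeR), but was called lower under T cell gene scaling (-0.55). Its relative Ikbke had 121 ± 14.2 CPM in FOXP3-high and 88.2 ± 9.39 CPM in FOXP3-low (log2 fold change 0.45, adjusted p = 0.00476, edgeR). Among 11 interferon genes listed only Ifng had enough counts to be tested, with 7.20 ± 1.72 CPM in FOXP3-high and 6.28 ± 0.969 CPM in FOXP3-low (log2 fold change 0.19, adjusted p = 0.482, edgeR). Ifnb1 had 5, 0 and 2 counts in FOXP3-high and 6, 4, 15 and 12 counts in FOXP3-low, and 5 interferon genes had no count in any library.

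Of 13 tested DNA-binding partners of IRF4 and IRF8, 5 were higher (38.5%), 3 lower (23.1%) and 5 not called (median log2 fold change -0.03), against 2 higher and 9 lower under T cell gene scaling. The lower count was 6 without FOXP3-high replicate 3. Spi1, which encodes PU.1, fell to 3.98 ± 1.13 CPM in FOXP3-high, against 63.8 ± 9.33 CPM in FOXP3-low (log2 fold change -3.98 ± 0.193 SE, adjusted p = 5.27e-07, edgeR). PU.1 is itself a myeloid and B cell factor. Ets1 rose to 1182 ± 101 CPM in FOXP3-high, against 672 ± 39.5 CPM in FOXP3-low, and Ikzf3, encoding Aiolos, to 426 ± 41.2 CPM in FOXP3-high, against 234 ± 14.9 CPM in FOXP3-low (log2 fold changes 0.82 and 0.86, adjusted p = 8.72e-06 and 1.13e-05, edgeR). Batf, encoding the T cell partner BATF, fell to 128 ± 10.9 CPM in FOXP3-high, against 175 ± 5.61 CPM in FOXP3-low (log2 fold change -0.45, adjusted p = 2.96e-04, edgeR). Of the JUN genes, Jund was higher (log2 fold change 0.33, adjusted p = 8.03e-04, edgeR) and Jun was not called. Junb had 627 ± 61.3 CPM in FOXP3-high and 639 ± 28.0 CPM in FOXP3-low and was not called, but was called lower under T cell gene scaling (-0.52). Among 13 cofactors and regulators of IRF proteins, 7 were higher (53.8%), 1 lower (7.69%) and 5 not called (median 0.29), against 2 higher and 6 lower under T cell gene scaling. The lower count was 2 without FOXP3-high replicate 2. Crebbp, a histone acetyltransferase and coactivator, rose to 241 ± 12.6 CPM in FOXP3-high, against 151 ± 5.55 CPM in FOXP3-low (log2 fold change 0.68, adjusted p = 6.80e-06, edgeR).

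Of 16 effector Treg genes linked to IRF4, 9 were higher (56.2%), 2 lower (12.5%) and 5 not called (median log2 fold change 0.35), against 6 higher and 8 lower under T cell gene scaling. Ctla4, Il2ra and Tnfrsf18 are also among the Treg genes counted earlier, so these counts overlap. Dependence of the list on IRF4 was not tested. Il1rl1, the interleukin-33 receptor ST2, rose to 242 ± 36.0 CPM in FOXP3-high, against 73.1 ± 9.12 CPM in FOXP3-low (log2 fold change 1.73 ± 0.115 SE, adjusted p = 2.73e-06, edgeR). The inhibitory receptor gene Ctla4 rose to 1596 ± 207 CPM in FOXP3-high, against 979 ± 77.5 CPM in FOXP3-low (log2 fold change 0.71, adjusted p = 1.44e-04, edgeR). Havcr2, encoding TIM-3, fell to 71.6 ± 3.70 CPM in FOXP3-high, against 175 ± 11.4 CPM in FOXP3-low (log2 fold change -1.29, adjusted p = 7.72e-07, edgeR). TIM-3 is also found on macrophages and dendritic cells, and the part of these cells was not tested. Il2ra had 476 ± 49.7 CPM in FOXP3-high and 535 ± 26.5 CPM in FOXP3-low and was not called (log2 fold change -0.17, adjusted p = 0.0828, edgeR), but was called lower without FOXP3-high replicate 2 (-0.23) or without FOXP3-low replicate 3 (-0.21), and under T cell gene scaling (-0.66).

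Of 12 conventional dendritic cell and monocyte genes linked to IRF8, 11 were lower (91.7%) and 1 was higher (8.33%), with a median log2 fold change of -2.65. Their summed level was 312, 278 and 358 CPM in FOXP3-high, against 1852, 1496, 1644 and 1375 CPM in FOXP3-low. The groups were wide apart, by more than the 3.10-fold of Irf8. Cybb, the catalytic subunit of the phagocyte oxidase, fell to 45.8 ± 10.9 CPM in FOXP3-high, against 309 ± 38.8 CPM in FOXP3-low (log2 fold change -2.75 ± 0.159 SE, adjusted p = 1.24e-06, edgeR). Wdfy4, required for cross-presentation, fell to 4.96 ± 0.486 CPM in FOXP3-high, against 71.7 ± 16.0 CPM in FOXP3-low (log2 fold change -3.85, adjusted p = 7.06e-07, edgeR). Cadm1, an adhesion molecule, was the member that was higher, with 26.2 ± 3.47 CPM in FOXP3-high and 14.9 ± 4.12 CPM in FOXP3-low (log2 fold change 0.81, adjusted p = 0.008, edgeR), and it was not called under T cell gene scaling. Of the 12 genes 5 (Cd74, Clec9a, Flt3, Xcr1 and Zbtb46) are also among the dendritic cell markers, so these counts overlap, and of the other 7 genes 6 were lower. Cd74 had 99.4 ± 16.7 CPM in FOXP3-high and 851 ± 139 CPM in FOXP3-low.

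Of 33 targets of ISGF3 and IRF7, 9 were higher (27.3%), 10 lower (30.3%) and 14 not called, shares near those of all genes, with a median log2 fold change of -0.06, and their summed level overlapped at 3049 to 3348 CPM in FOXP3-high and 2966 to 3163 CPM in FOXP3-low. Under T cell gene scaling 1 was higher and 24 were lower. Samd9l, an antiviral factor, rose to 341 ± 31.8 CPM in FOXP3-high, against 212 ± 13.3 CPM in FOXP3-low (log2 fold change 0.68 ± 0.0715 SE, adjusted p = 4.84e-05, edgeR). Oasl1, known in mice as a translational inhibitor of Irf7, fell to 8.56 ± 0.571 CPM in FOXP3-high, against 54.3 ± 5.54 CPM in FOXP3-low (log2 fold change -2.66 ± 0.109 SE, adjusted p = 2.31e-07, edgeR). Parp14 had 459 ± 37.6 CPM in FOXP3-high and 430.1 ± 11.3 CPM in FOXP3-low and was not called, but was called lower under T cell gene scaling (-0.40).

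Of 27 interferon-gamma and IRF1 targets, 9 were higher (33.3%), 11 lower (40.7%) and 7 not called (median log2 fold change -0.14), against 4 higher and 20 lower under T cell gene scaling. Iigp1, an immunity-related GTPase, rose to 183 ± 3.08 CPM in FOXP3-high, against 107 ± 5.88 CPM in FOXP3-low (log2 fold change 0.77 ± 0.0544 SE, adjusted p = 4.02e-06, edgeR). Cd274, encoding PD-L1, fell to 311 ± 17.0 CPM in FOXP3-high, against 523 ± 46.2 CPM in FOXP3-low (log2 fold change -0.75, adjusted p = 2.64e-05, edgeR). Psme1, a proteasome activator subunit, fell to 848 ± 26.9 CPM in FOXP3-high, against 1126 ± 66.4 CPM in FOXP3-low (log2 fold change -0.41, adjusted p = 1.78e-04, edgeR). Ciita, the master regulator of class II genes, fell to 4.86 ± 2.15 CPM in FOXP3-high, against 41.0 ± 6.61 CPM in FOXP3-low (log2 fold change -3.06, adjusted p = 1.00e-05, edgeR). Ciita is active in dendritic and B cells, whose markers moved with it, and their part was not tested.

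**Figure D5:**
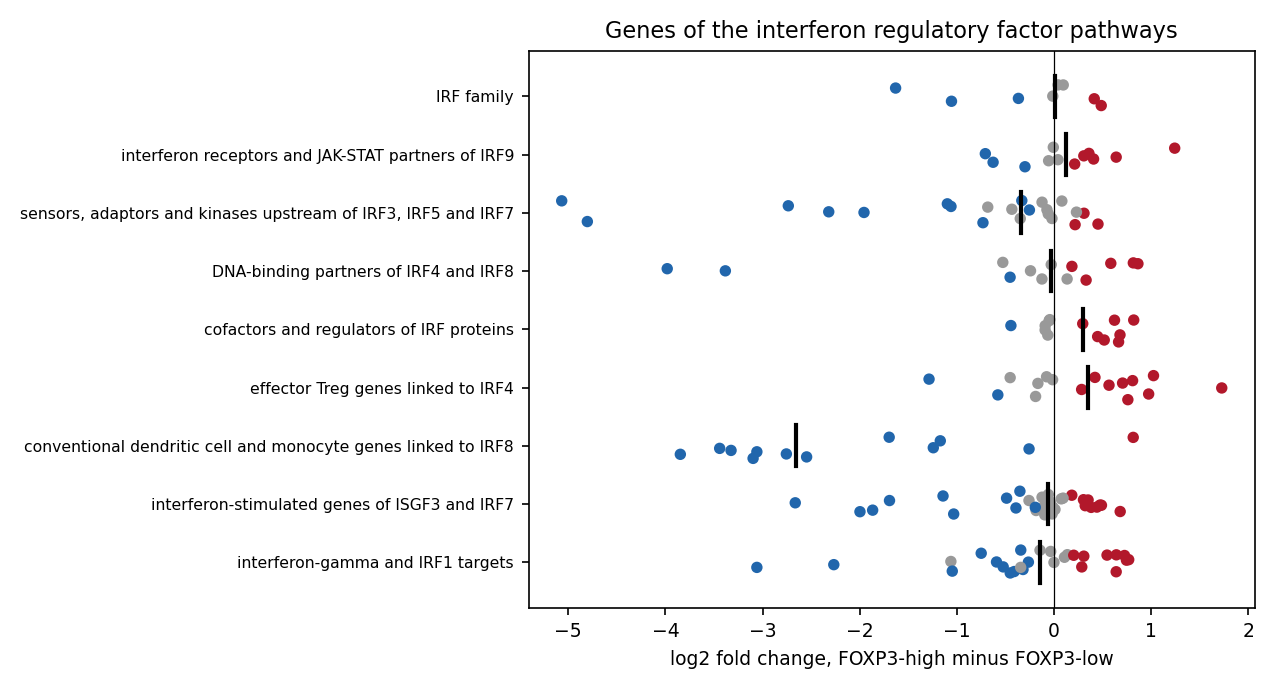
Log2 fold change of FOXP3-high over FOXP3-low (horizontal axis) for each tested gene of the IRF family and of the lists linked to it, 1 row per list with vertical jitter only. Red points were called higher and blue points lower at an adjusted p under 0.05, grey points were not called, and the black bar is the list's median, which lies at -2.65 for the dendritic cell and monocyte genes and between -0.34 and 0.35 for the other lists shown.

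Likeness of pattern over the 7 libraries was measured as the root mean square difference of log2 CPM after centring each gene, among 9586 genes with at least 5 CPM on average. The members, predicted genes, pseudogenes, receptor and immunoglobulin segments, and mitochondrial and histone genes were left out of these candidates. Irf8 was nearest to Hp (0.0494), which encodes haptoglobin, then Efhd2 (0.0659) and Gngt2 (0.0756). Irf5 was nearest to Lsr (0.0585), Gm2a (0.0772) and Sdc4 (0.0852), and Irf7 to Ap2a2 (0.0364), Coq2 (0.0383) and the DNA methyltransferase gene Dnmt3a. Irf9 was nearest to Clk2 (0.0370), Traf4 (0.0372) and Dyrk2 (0.0407), and Irf3 to Bicra (0.0475), Fyb (0.0494) and Zfp212. For the level members, Irf1 was nearest to the adhesion receptor gene Icam1 (0.0238), Irf2 to Ehmt2 (0.0288) and the JAK kinase gene Tyk2 (0.0288), and Irf4 to Rassf2 (0.0399). Irf5 had the largest distance to its nearest gene, followed by Irf8 (0.0494) and Irf3 (0.0475), which were close to each other.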

How the data were processed

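RNA was measured in 7 libraries of sorted Treg cells. Per the labels' protocols, TRIzol RNA (100-200 ng) went into a stranded mRNA kit. The authors deposited whole-number counts per gene, not normalized, beside each gene's position and length. The submitters' processing notes name fastp 0.23.4, featureCounts, STAR 2.5.3a and the builds GRCm39 and GRCh38, and positions are read here as GRCm39. The sources used here do not state the strand setting or how multi-mapping and duplicate reads were treated.

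Tests used edgeR 4.0.16 in R 4.3.3 (filterByExpr, TMM, quasi-likelihood test, Benjamini-Hochberg over 15838 genes at 0.05). CPM and TPM were computed from the counts. SE is the log2 fold change divided by the root of its F statistic. Counts of library pairs within a group differed beyond counting noise (chi-square per gene 3.98 to 12.2). The edgeR step was tested on simulated data. Alternatives were other scalings and filters, the DESeq2 1.42.0 Wald test, limma-voom (limma 3.58.1), a replicate block, and leaving out libraries. Named genes are the 8 members, the 4 most abundant genes and the strongest call in each direction of each list (a selection is printed), leading markers, and the 3 genes nearest each member. A few other genes, such as Batf and Ifngr2, are named beside these. The members and lists were chosen with earlier results of these data known. Some genes that the naming rule selects are not reported here.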

Additional observations from a re-analysis of the deposited data

How the results depend on the processing

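Scaling to 15 T cell genes was the setting that changed calls of members. It gave log2 fold changes of -0.50 for Irf1, -0.45 for Irf2, -0.011 for Irf3, -0.40 for Irf4 and -0.080 for Irf9. Among other named genes that changed sign it gave -0.086 for Jak1, -0.28 for Traf3, -0.041 for Ikbke, -0.18 for Rigi, -0.074 for Tnfrsf4, -0.40 for Parp14, -0.0040 for Herc6 and -0.21 for Gbp3. It called 0 members higher and 6 lower, and 768 of all genes higher and 8192 lower. In the lists it called 1 higher and 8 lower (JAK-STAT), 0 and 17 (sensors), 2 and 9 (DNA-binding partners), 2 and 6 (cofactors), 1 and 24 (ISGF3 targets) and 4 and 20 (interferon-gamma targets), with 8 effector Treg genes lower and 0 dendritic cell genes higher. These 15 genes were higher in FOXP3-high under TMM (median log2 fold change 0.46). Scaling to them therefore moved log2 fold changes downward by a nearly even amount, with the median over all genes tested at -0.48. The lower DNA-binding partners numbered 5 with no filter, 5 without both libraries numbered 3, and 3 to 6 when single libraries were left out. The lower cofactors numbered 1 to 2 when single libraries were left out. In every other setting run, all 8 members kept their call, and called members their direction.

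Same-numbered libraries of the groups did not deviate together in every pair (r = -0.09, 0.15 and 0.60), and not every library correlated best with its own number. A replicate block gave 3294 genes higher and 3735 lower, with Irf8 at -1.67 and Irf3 at 0.44, and changed no member's call. Depth limits the interferon genes, which rest on few counts. A gene length per gene, not per isoform, limits TPM.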
